A study of Mus musculus with 12 samples.

Results

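The 8 genes described here take part in the removal of organelles from lens fiber cells, in autophagy or in the RNA granules of fiber cells. They are *Dnase2b*, *Tdrd7*, *Caprin2*, *Bnip3*, *Bnip3l*, *Atg5*, *Becn1* and *Sqstm1*, and they were selected by gene symbol among the 55487 gene identifiers of the deposited count table, where each of the 8 has 1 row. Lens fiber cells lose their nuclei, mitochondria and endoplasmic reticulum as they mature, which leaves a transparent, organelle-free core. The acid DNase of fiber lysosomes digests the nuclear DNA, mitophagy receptors mark mitochondria for uptake into autophagosomes, and the general autophagy proteins build the phagophore and bind its cargo. RNA granule proteins bind fiber mRNAs and act on their stability and translation, and loss of *Tdrd7* is a known cause of cataract.

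Whole-lens poly(A) RNA was sequenced at postnatal day 7 (P7) in 4 genotypes with 3 libraries each, all on the C57BL6/J background. *Trpm3* encodes a calcium-permeable cation channel. *Trpm3*-M/M and *Trpm3*-I/M mice were homozygous and heterozygous for a CRISPR/Cas9 knock-in that replaces an isoleucine of the channel by methionine, and *Trpm3*-KO mice carried a recombinant allele with a reporter and selection cassette that can still give fusion transcripts. In what follows the genotypes are called M/M, I/M and KO. Wild-type mice were the control of all 3 mutant genotypes, so the comparisons with wild-type share the same libraries, and every library pooled 4 male and 4 female lenses, so that the spread between libraries is a spread between pools.

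Levels are given as CPM, the counts of a gene scaled to a common library total, with trimmed mean of M-values (TMM) factors, with the standard deviation (SD) over 3 libraries. Fold changes (FC) are log2 values with their standard error (SE) from edgeR's quasi-likelihood test, and adjusted p-values carry the Benjamini-Hochberg adjustment over the 8984 genes tested, those with at least 5 CPM in at least 3 of 12 libraries. "Rose" and "fell" are used at an adjusted p of 0.05 or less, and the study's own stricter thresholds add a FC of 2.

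Total counts were 56162198 to 82090234 per library. The targeted gene *Trpm3* fell in KO lens, from 268.5 ± 17.3 CPM in wild-type to 95.3 ± 5.02 CPM (log2 FC -1.49, SE 0.06, edgeR adjusted p = 3.36e-09), and it stood at 386.6 ± 23.4 CPM in I/M and 475.2 ± 8.01 CPM in M/M lens. I/M replicate 3 went against the label of a pool of both sexes: its *Xist* level, looked up as a check of the pools, was 0.0721 CPM against 45.8 to 304.9 CPM in the other 11 libraries, and its summed level of 4 Y-linked genes was 69.1 CPM against 21.6 to 50.6 CPM. Fold changes of the 8 genes in I/M lens are therefore also given without it. The 10 fiber markers searched summed to at least 22003 CPM in every library, and no marker list of cells from outside the lens summed to more than 413 CPM. All 10 fiber markers and all 7 epithelial markers had counts in each of the 12 libraries. At this depth the presence of counts does not by itself identify a tissue.

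*Bnip3* (3.18-fold), *Sqstm1* (2.64-fold) and *Bnip3l* (1.22-fold) rose in M/M lens, while *Caprin2*, *Dnase2b*, *Tdrd7* and *Becn1* fell. These 7 genes passed the filter on low counts in all 12 libraries. *Atg5* passed it through the I/M and M/M libraries alone, where it is higher, so its values are given as a description and it is left out of the counts here. In I/M lens 2 of the 7 passed the test, *Sqstm1* higher and *Dnase2b* lower, and in KO lens 0 of the 7 passed it. Over all tested genes 62.7% passed the same test in M/M, 32.6% in I/M and 4.36% in KO lens, so that a count of 7 of 7 stands beside a background in which most genes differed. By direction, 31.4% of tested genes were higher and 31.4% lower in M/M lens, 17.3% and 15.3% in I/M lens, and 2.16% and 2.20% in KO lens.

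With a FC of 2 required as well, *Bnip3* and *Sqstm1* remained in M/M lens, where 8.95% of tested genes met both thresholds. Without M/M replicate 1 the number was 4, with *Dnase2b* and *Caprin2* added, but the share of all tested genes meeting both thresholds in that fit was not computed. *Sqstm1* alone met them in I/M lens (3.33% of tested genes) and none in KO lens (0.568%). The 3 M/M libraries lay wholly above or below the 3 wild-type libraries for 7 of the 7 genes (65.2% of tested genes), against 5 of the 7 in I/M (44.6%) and 3 of the 7 in KO lens (23.2%). The median log2 FC over the 7 was -0.12 in M/M, 0.11 in I/M and -0.0030 in KO lens, beside -0.0042, -9.46e-04 and 4.23e-04 over all tested genes. Without I/M replicate 3 the log2 FC in I/M lens was -0.50 for *Dnase2b*, 1.00 for *Sqstm1*, 0.31 for *Bnip3*, 0.12 for *Caprin2*, 0.11 for *Bnip3l*, 0.13 for *Atg5*, -0.07 for *Tdrd7* and -0.08 for *Becn1*, and it was again the first 2 of these that passed the test.

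**Figure D1:**
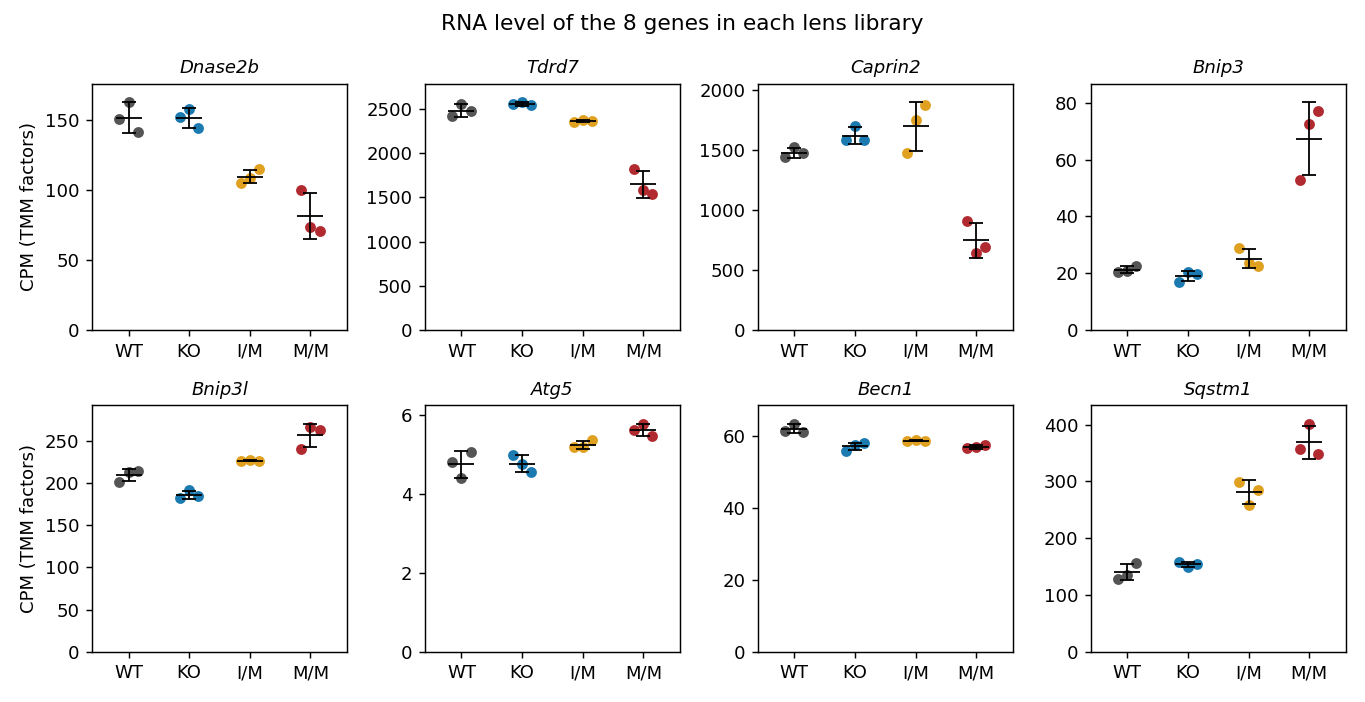
RNA level of each gene in CPM (vertical axis, from 0) by genotype (horizontal axis), with 1 point per library and a bar for the mean and SD of 3 libraries. *Dnase2b* and *Sqstm1* stand apart from wild-type in both I/M and M/M lens, whereas *Tdrd7*, *Caprin2* and *Bnip3* shift mainly in M/M lens.

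*Dnase2b* encodes DNase IIβ, the acid DNase that degrades nuclear DNA in differentiating fiber cells. The gene (ENSMUSG00000028185) lies on the minus strand at chr3:146580985-146615596 (GRCm38). Its RefSeq promoter window, 250 bases before to 50 bases after the annotated start on GRCm38.p6 (minus strand, chr3:146615549-146615848), is shown because the window holds a heat shock element, the kind of site bound by heat shock factors such as HSF4, the lens factor that acts on *Dnase2b*. Capitals mark the match GAATGTTC to GAANNTTC (either strand searched, the motif being its own reverse complement) at -230 from the start:

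Dnase2b promoter: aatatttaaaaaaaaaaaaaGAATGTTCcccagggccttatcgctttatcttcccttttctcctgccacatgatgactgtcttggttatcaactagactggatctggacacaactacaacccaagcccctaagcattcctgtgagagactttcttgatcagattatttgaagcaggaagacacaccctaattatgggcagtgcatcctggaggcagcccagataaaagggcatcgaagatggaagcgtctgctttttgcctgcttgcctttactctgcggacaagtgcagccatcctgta

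This motif occurs in 7.86% of the 32851 promoter windows of the same length, and a match is a description of the letters only.

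The 3 wild-type libraries gave 151, 163 and 142 CPM of *Dnase2b* and the 3 KO libraries 152, 158 and 144 CPM. The level was 105, 109 and 115 CPM in I/M lens and 100.5, 73.7 and 70.9 CPM in M/M lens. The libraries of both missense genotypes lay below all wild-type libraries without overlap, and M/M replicate 1 was the nearest to wild-type of its group.

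*Dnase2b* fell by 0.90 on the log2 scale in M/M lens (SE 0.11, edgeR adjusted p = 7.6e-06) and by 0.47 in I/M lens (SE 0.11, edgeR adjusted p = 0.00436). In the direct comparison of the 2 missense genotypes it was lower by 0.43 in M/M than in I/M lens (edgeR adjusted p = 0.00444). This call was lost with library size alone (-0.12, edgeR adjusted p = 0.245). In KO lens the log2 FC was -0.0030, with a 95% interval of -0.23 to 0.23, so a change of the size seen in I/M lens lies outside this interval. Without M/M replicate 1 the log2 FC in M/M lens was -1.05, past the FC of 2, and without I/M replicate 3 the value in I/M lens was -0.50 (edgeR adjusted p = 0.00894).

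The summed level of 10 fiber markers that are not among the 8 genes moved in the same direction. It was 41254 to 46802 CPM in wild-type, 40063 to 41129 CPM in KO, 34787 to 37022 CPM in I/M and 22003 to 24830 CPM in M/M libraries. In whole-lens RNA, fewer fiber cells and less RNA per fiber cell cannot be told apart. The related acid DNase gene *Dnase2a*, which most other cells use, was near the detection limit with 11 to 20 counts per wild-type library and 46 to 76 counts per M/M library, and it was not tested. The log2 ratio of *Dnase2b* to *Dnase2a* within a library was 8.92 ± 0.46 in wild-type and 6.88 ± 0.50 in M/M lens, a difference of -2.04 (exact permutation test, two-sided, p = 0.1, which is the lowest value 3 against 3 libraries can give). The difference was -0.41 in I/M lens and 1.00 in KO lens (exact permutation p = 0.2 in each), where *Dnase2a* had 5 to 11 counts in KO libraries.

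*Tdrd7* and *Caprin2* encode RNA granule proteins that are abundant in fiber cells, a Tudor domain protein required for a clear lens and a cytoplasmic RNA-binding protein needed for normal lens shape. *Tdrd7* (ENSMUSG00000035517) lies at chr4:45965334-46034761 and *Caprin2* (ENSMUSG00000030309) at chr6:148842492-148896237. *Tdrd7* stood at 2417, 2554 and 2477 CPM in wild-type, 2554, 2581 and 2541 CPM in KO, 2352, 2373 and 2361 CPM in I/M, and 1821, 1581 and 1538 CPM in M/M libraries. Only the M/M group of the mutant lenses was far below wild-type, and the I/M libraries were just under the lowest wild-type library.

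*Tdrd7* fell by 0.59 on the log2 scale in M/M lens (SE 0.06, edgeR adjusted p = 1.3e-06). The log2 FC was -0.07 in I/M (edgeR adjusted p = 0.381) and 0.04 in KO lens (edgeR adjusted p = 0.762). The fall in M/M lens rested on the scaling: with library size alone, which moves the median of all tested genes up by 0.50 in this comparison, the log2 FC was -0.08 (edgeR adjusted p = 0.15), and in I/M lens its sign turned, to 0.13.

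*Caprin2* stood at 1437, 1523 and 1472 CPM in wild-type, 1582, 1698 and 1582 CPM in KO, and 1474, 1747 and 1872 CPM in I/M libraries. The M/M libraries held 911, 642 and 688 CPM. The homozygous group was below every other library, while the heterozygous group overlapped wild-type at its lower end.

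*Caprin2* fell by 0.98 on the log2 scale in M/M lens (SE 0.11, edgeR adjusted p = 5.68e-06) and by 1.18 against I/M lens (edgeR adjusted p = 2.41e-06). Its log2 FC was 0.20 in I/M lens (95% interval -0.04 to 0.44, edgeR adjusted p = 0.199) and 0.13 in KO lens (95% interval -0.11 to 0.38). The value in I/M lens was 0.12 without I/M replicate 3 (edgeR adjusted p = 0.497), and it passed the threshold with library size alone (0.40, edgeR adjusted p = 0.00545) and without the filter on low counts (0.22, edgeR adjusted p = 7.5e-04). Without M/M replicate 1, the sample of its group nearest to wild-type for *Tdrd7*, *Caprin2*, *Dnase2b* and *Bnip3*, the *Caprin2* log2 FC was -1.13.

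*Bnip3* and *Bnip3l* encode mitophagy receptors of the outer mitochondrial membrane, and *Bnip3l* (also called NIX) is needed for the clearance of mitochondria from the lens core. *Bnip3* (ENSMUSG00000078566) lies on the minus strand at chr7:138890836-138909519 and is a known target of hypoxia-inducible factors. Its RefSeq promoter window (GRCm38.p6, minus strand, chr7:138909457-138909756) is shown because it holds the hypoxia response core ACGTG. Capitals mark CACGTG, which reads as ACGTG on both strands in overlapping matches that begin at -108 and -107 from the start:

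Bnip3 promoter: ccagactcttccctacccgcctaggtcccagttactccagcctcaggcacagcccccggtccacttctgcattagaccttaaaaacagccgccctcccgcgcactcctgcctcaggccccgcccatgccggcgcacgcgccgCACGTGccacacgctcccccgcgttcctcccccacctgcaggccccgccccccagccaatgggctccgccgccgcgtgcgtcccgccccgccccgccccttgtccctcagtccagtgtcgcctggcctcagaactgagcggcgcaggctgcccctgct

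ACGTG on either strand occurs in 19.6% of the 32851 windows, and also in the windows of *Atg5* and, in 1 of 3 windows, *Tdrd7*. Windows were found for 6 of the 8 genes. No match in them was found for the antioxidant response core TGACNNNGC, the lysosomal gene palindrome TCACGTGA or the MAF half-site TGCTGAC, each searched on both strands and present in 12.4%, 0.974% and 4.67% of all windows.

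*Bnip3* stood at 20.3, 20.8 and 22.6 CPM in wild-type, 17.0, 20.4 and 19.6 CPM in KO, 28.9, 23.7 and 22.6 CPM in I/M, and 52.7, 72.6 and 77.1 CPM in M/M libraries. Every homozygous library was above all others, and the heterozygous libraries overlapped wild-type. *Bnip3* rose by 1.67 on the log2 scale in M/M lens (SE 0.13, edgeR adjusted p = 1.52e-07) and was higher there than in I/M lens by 1.43 (edgeR adjusted p = 1.33e-06). In I/M lens the log2 FC was 0.24 (95% interval -0.05 to 0.52, edgeR adjusted p = 0.193), and in KO lens it was -0.16 (95% interval -0.45 to 0.13). The value in I/M lens was 0.12 without I/M replicate 1, and it passed the threshold with library size alone (0.44, edgeR adjusted p = 0.0184) and without the filter on low counts (0.26, edgeR adjusted p = 0.00116).

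*Bnip3l* (ENSMUSG00000022051, chr14:66985239-67008877) stood at 201, 213 and 214 CPM in wild-type, 182, 191 and 185 CPM in KO, 226, 228 and 227 CPM in I/M, and 240.4, 266 and 263 CPM in M/M libraries. No group overlapped wild-type, with KO libraries below it and the missense libraries above it. *Bnip3l* rose by 0.29 in M/M lens (SE 0.05, edgeR adjusted p = 1.09e-04). The log2 FC of 0.11 in I/M lens (edgeR adjusted p = 0.0801) and of -0.17 in KO lens (edgeR adjusted p = 0.063) missed the threshold, although the latter passed it with DESeq2 (adjusted p = 0.0116), without wild-type replicate 1 (edgeR adjusted p = 0.0472) and without M/M replicate 1 (edgeR adjusted p = 0.0217). The value in I/M lens passed it without M/M replicate 1 (edgeR adjusted p = 0.0329), which enters the estimate of the spread, and with library size alone (0.32, edgeR adjusted p = 5.65e-04).

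The balance of the 2 receptors, which no scaling factor touches, shifted towards *Bnip3* in M/M lens. The log2 ratio of *Bnip3l* to *Bnip3* counts within a library was 3.30 ± 0.06 in wild-type and 1.94 ± 0.22 in M/M lens, a difference of -1.36 (exact permutation test, two-sided, p = 0.1). The difference was -0.12 in I/M lens (exact permutation p = 0.5), or -0.19 without I/M replicate 3, and -0.0069 in KO lens (exact permutation p = 0.8).

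*Sqstm1* encodes p62, a receptor that links ubiquitinated cargo to the LC3 proteins of the growing autophagosome. The gene (ENSMUSG00000015837) lies at chr11:50199366-50210827. It stood at 128, 135 and 156 CPM in wild-type, 157, 149 and 155 CPM in KO, 299.5, 259 and 285 CPM in I/M, and 356, 402 and 348 CPM in M/M libraries. The 4 genotypes thus formed 3 separate levels, wild-type with KO, then I/M, then M/M.

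*Sqstm1* rose by 1.01 in I/M (SE 0.08, edgeR adjusted p = 4.95e-07) and by 1.40 in M/M lens (SE 0.08, edgeR adjusted p = 5.07e-09), and the 2 missense genotypes differed by 0.39 (edgeR adjusted p = 8.88e-04). The log2 FC in KO lens was 0.14, with a 95% interval of -0.03 to 0.30. At 2.01-fold, the value in I/M lens lay just past a FC of 2: it fell short of it when I/M replicate 1, wild-type replicate 1 or wild-type replicate 2 was left out, at a log2 FC of 0.95 in the lowest case, and it was 1.00 without I/M replicate 3.

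*Becn1* and *Atg5* encode core autophagy proteins, the Beclin 1 subunit of the lipid kinase complex that starts the phagophore and a partner of ATG12 in the conjugation of LC3. *Becn1* (ENSMUSG00000035086, chr11:101285952-101302286) stood at 61.6, 63.5 and 61.3 CPM in wild-type, 55.96, 57.4 and 58.1 CPM in KO, 58.8, 59.0 and 58.6 CPM in I/M, and 56.6, 57.0 and 57.6 CPM in M/M libraries. All 9 mutant libraries were below the wild-type libraries by a small margin. *Becn1* fell by 0.12 in M/M lens (SE 0.04, edgeR adjusted p = 0.0107), and the log2 FC was -0.12 in KO (edgeR adjusted p = 0.0952, DESeq2 adjusted p = 0.0377) and -0.08 in I/M lens (edgeR adjusted p = 0.119). The call in M/M lens was lost without M/M replicate 1 (edgeR adjusted p = 0.0705), without replicate 2 of that group (edgeR adjusted p = 0.0728) and without the filter on low counts (edgeR adjusted p = 0.104), and with library size alone the direction turned, to 0.39.

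*Atg5* (ENSMUSG00000038160, chr10:44268358-44364291) was the lowest of the 8 genes, at 4.80, 4.39 and 5.05 CPM in wild-type, 4.99, 4.76 and 4.56 CPM in KO, 5.18, 5.20 and 5.36 CPM in I/M, and 5.63, 5.78 and 5.46 CPM in M/M libraries. It passed the filter on low counts through the 6 I/M and M/M libraries alone, with 0 of the 6 wild-type and KO libraries at 5 CPM before TMM scaling. A gene that enters the test in this way had to be higher in those groups, so no rise is drawn from its p-value. The log2 FC of *Atg5* was 0.24 in M/M lens (SE 0.07), 0.14 in I/M lens and 0.0062 in KO lens (95% interval -0.16 to 0.17). Without the filter, the value in M/M lens was 0.23 and did not pass the test (edgeR adjusted p = 0.082). The call was also lost without wild-type replicate 2 (edgeR adjusted p = 0.0582). It was kept with a CPM of at least 1, which every library reached (lowest 3.64 CPM), so fits that do not select the gene differed on it.

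**Figure D2:**
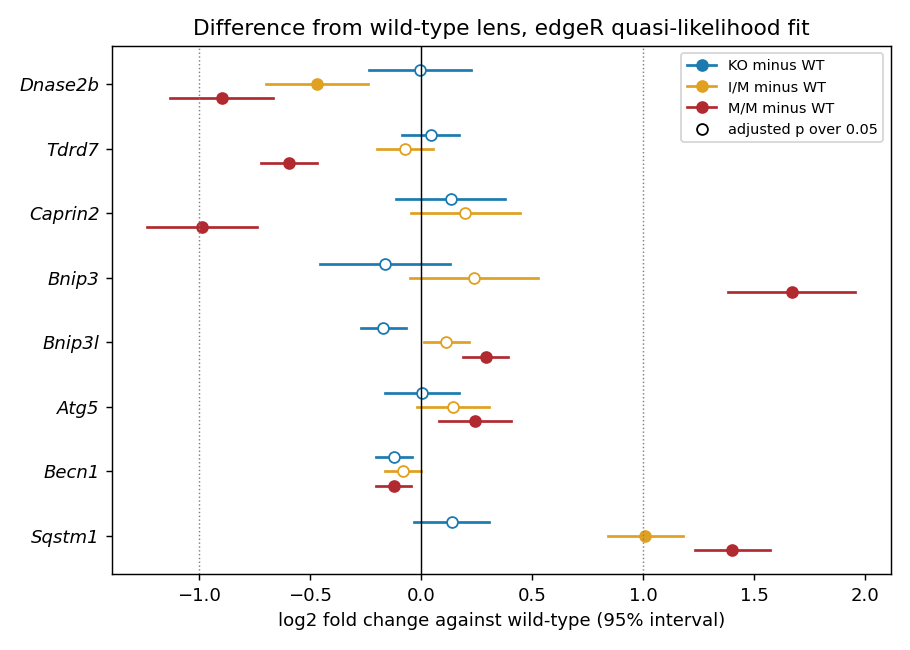
Log2 FC against wild-type (horizontal axis) for each gene in KO, I/M and M/M lens, with 95% intervals and open circles for adjusted p over 0.05. Dotted lines stand at a FC of 2. *Bnip3* and *Sqstm1* lie past the right line in M/M lens, and every KO circle is open. *Atg5* entered the test through the I/M and M/M libraries alone, so its filled circle is no support for a rise.

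The 2 missense genotypes were also compared directly. M/M lens has a second mutant copy and lacks the wild-type copy, and the comparison cannot separate the 2. In M/M against I/M lens 6 of the 7 genes other than *Atg5* passed the test, 3 higher (*Bnip3*, *Sqstm1*, *Bnip3l*) and 3 lower (*Caprin2*, *Tdrd7*, *Dnase2b*), where 51.3% of all tested genes did (25.6% higher and 25.7% lower). *Tdrd7* differed by -0.52 (edgeR adjusted p = 9.45e-06) and *Bnip3l* by 0.18 (edgeR adjusted p = 0.00611), the latter a call that was lost without the filter on low counts (0.14, edgeR adjusted p = 0.0727). *Becn1* did not pass (-0.04, 95% interval -0.12 to 0.04), and *Atg5* differed by 0.10 (95% interval -0.05 to 0.25). *Bnip3* and *Caprin2* also met the FC of 2, against 4.70% of tested genes. The 2 groups of libraries were separate for 7 of the 7 genes, as for 60.5% of tested genes.

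Against KO lens, a comparison that shares the M/M libraries with the one against wild-type, M/M lens differed in 6 of the 7 genes, 3 higher and 3 lower (64.8% of tested genes, 32.3% higher and 32.4% lower). *Becn1* was the exception, at a log2 FC of -0.0022 with a 95% interval of -0.08 to 0.08, and its libraries alone overlapped between the 2 genotypes (6 of the 7 genes without overlap, 70.9% of tested genes). *Bnip3* differed by 1.83, *Sqstm1* by 1.26 and *Caprin2* by -1.12, and these 3 met the FC of 2 (9.78% of tested genes). *Atg5* differed by 0.24, and by 0.23 in the fit without the filter on low counts, where it did not pass (edgeR adjusted p = 0.0782). With a CPM of at least 1 it passed.

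Levels of the 8 genes spanned a wide range when divided by exon length. This length joins all annotated exons of a gene (2265 bases for *Bnip3*, 7065 for *Becn1* and 14140 for *Caprin2*). It can exceed the length of the transcripts present, so the order below depends on it. In wild-type lens *Tdrd7* had the highest level, 627 CPM per kb, followed by *Caprin2* at 104, *Dnase2b* at 54.5, *Bnip3l* at 54.3, *Sqstm1* at 41.6, *Bnip3* at 9.38, *Becn1* at 8.79 and *Atg5* at 2.02 CPM per kb. The libraries of *Dnase2b* and *Bnip3l* overlapped, as did those of *Bnip3* and *Becn1*, so neither pair had a clear order on this scale. Without division by length, *Becn1* stood at 62.1 CPM and *Bnip3* at 21.2 CPM in wild-type lens. In M/M lens *Tdrd7* was still first at 416 CPM per kb, and *Sqstm1* was second at 109.9 CPM per kb. *Bnip3l* (66.5) and *Caprin2* (52.8) overlapped there, and so did *Bnip3* (29.8) and *Dnase2b* (29.3), all in CPM per kb, while *Becn1* (8.08) and *Atg5* (2.39) were again the lowest.

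The levels were next expressed relative to the summed fiber markers of the same library, a comparison that was added after the data were seen. On this scale *Dnase2b* differed between M/M and wild-type lens by -0.03 in log2 units (exact permutation p = 1) and *Caprin2* by -0.12 (exact permutation p = 0.5), with overlapping libraries for both. *Tdrd7* was higher by 0.29 without overlap (exact permutation p = 0.1). The whole-lens log2 FC of -0.90 for *Dnase2b*, -0.98 for *Caprin2* and -0.59 for *Tdrd7* stood beside a change of the fiber marker sum of -0.88 in M/M lens. The sum changed by -0.26 in I/M and by -0.09 in KO lens.

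Because the marker sum itself was lower by 0.88, a gene at an equal CPM in both genotypes stands near 0.88 on this scale. The log2 difference in M/M lens was 2.53 for *Bnip3*, 2.29 for *Sqstm1*, 1.18 for *Bnip3l*, 1.13 for *Atg5* and 0.76 for *Becn1* (exact permutation p = 0.1 each, 0.15 after adjustment over 24 comparisons, and 0.1 is the smallest possible). *Becn1*, lower by 0.12 in CPM, thus had the opposite sign here, and most of the value of *Atg5* and *Bnip3l* equals the change of the marker sum. In I/M lens the log2 difference was -0.20 for *Dnase2b*, 0.46 for *Caprin2*, 0.19 for *Tdrd7*, 0.50 for *Bnip3*, 0.38 for *Bnip3l*, 0.41 for *Atg5*, 0.18 for *Becn1* and 1.28 for *Sqstm1* (exact permutation p = 0.1 each). Without I/M replicate 3 these values lay between -0.24 for *Dnase2b* and 1.27 for *Sqstm1*, with 0.38 for *Caprin2* and 0.57 for *Bnip3*. KO libraries were also separate from wild-type for *Caprin2* (0.22) and *Tdrd7* (0.13, exact permutation p = 0.1 each, 0.15 after adjustment), and they overlapped it for the other 6 genes (-0.08 to 0.23). The share of all tested genes that separate on this scale was not computed for any genotype. In CPM, 23.2% of tested genes were separate between KO and wild-type lens.

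**Figure D3:**
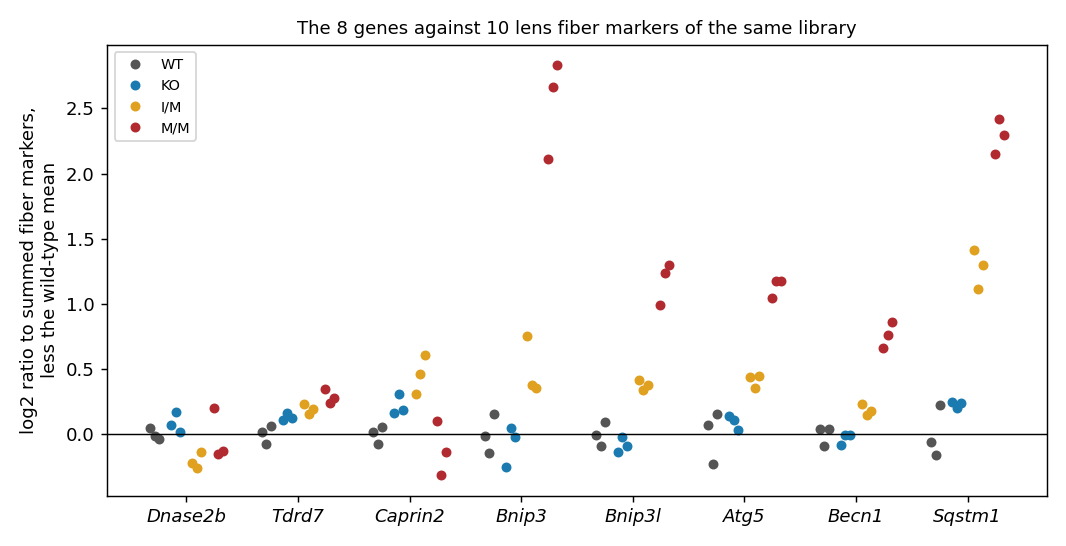
Log2 ratio of each gene to the summed level of 10 fiber markers in the same library, less the wild-type mean (vertical axis), with 1 point per library and color for genotype. M/M points of *Dnase2b* and *Caprin2* overlap the wild-type points, and those of *Bnip3* and *Sqstm1* lie more than 2 log2 units above the wild-type mean.

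The marker sums of cells other than fibers differed from wild-type in M/M lens, apart from the pigmented cell list. In I/M lens some of them differed and others overlapped wild-type. The summed level of 10 endothelial markers was 5.95 to 8.38 CPM in wild-type, 19.5 to 29.1 CPM in I/M and 62.2 to 71.7 CPM in M/M libraries, and that of 10 pericyte and fibroblast markers was 77.8 to 94.3 CPM in wild-type and 273 to 413 CPM in M/M libraries. Of the pericyte and fibroblast list, *Acta2* alone held 62.6 to 75.8 CPM in wild-type and 169 to 254 CPM in M/M libraries. The other 9 markers of that list summed to 15.2 to 19.4 and 104 to 159 CPM. The 12 macrophage markers summed to 0.436 to 0.688 CPM in wild-type and 11.2 to 23.0 CPM in M/M libraries. Of the red blood cell list, *Tfrc*, a transferrin receptor of many cell types, alone held 12.9 to 14.1 CPM in wild-type and 26.4 to 30.4 CPM in M/M libraries, and the other 8 markers summed to 1.53 to 12.2 and 13.9 to 16.6 CPM. Of the photoreceptor list, *Arr3*, a cone arrestin, alone went from 0.0393 to 0.042 CPM in wild-type to 10.7 to 19.9 CPM in M/M libraries, and the other 7 markers summed to 0.651 to 0.852 and 1.51 to 4.13 CPM. At least 1 macrophage marker was at 0 in each wild-type library and none in the M/M libraries. The 7 epithelial markers summed to 330.3 to 364 CPM in wild-type, 312 to 337 CPM in I/M and 253 to 263 CPM in M/M libraries. They did not move alike: of the 6 tested, 2 rose and 3 fell in M/M lens, and 2 rose and 3 fell in I/M lens. The 7 pigmented cell markers summed to 3.13 to 3.71 CPM in wild-type, 5.35 to 6.22 CPM in I/M and 2.95 to 3.52 CPM in M/M libraries. In I/M libraries the sums were 102 to 128 CPM for pericytes and fibroblasts and 1.11 to 1.34 CPM for macrophages. The I/M sums of the red blood cell list (21.5 to 35.7 CPM) and the photoreceptor list (0.790 to 0.809 CPM) overlapped wild-type. The part of these cells in the changes of *Sqstm1*, *Bnip3*, *Bnip3l* and *Atg5* was not tested.

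The pathways of the 8 genes were followed in 8 lists with 136 other genes, 122 of which were tested. In M/M lens 52 rose and 30 fell, in I/M lens 31 rose and 11 fell, and in KO lens 3 rose and 0 fell, beside 62.7%, 32.6% and 4.36% of all tested genes past the same threshold. As a share of the 122, the calls came to 67.2%, 34.4% and 2.46%. Without I/M replicate 3, 23 rose and 12 fell in I/M lens, beside 1300 higher and 1076 lower of all 8974 genes tested in that fit. Of the 122 genes, 6 passed the filter on low counts through I/M or M/M libraries alone (*Atg14*, *Nrbf2*, *Atg4c*, *Egln3*, *Car9* and *Epas1*), and without them 49 rose and 30 fell in M/M lens. The median log2 FC over the tested genes was 0.08, 0.06 and -0.0053 in the 3 comparisons. With library size alone in place of TMM factors the split in M/M lens was 107 higher and 4 lower, beside 7364 higher and 495 lower among all tested genes.

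Of the nuclear and organelle degradation list, 9 of 17 genes were tested and 2 rose and 5 fell in M/M lens. *Trex1*, a 3' exonuclease, fell by 2.28 on the log2 scale, from 166 ± 5.91 to 34.3 ± 7.89 CPM (edgeR adjusted p = 1.04e-08), and by 0.48 in I/M lens (edgeR adjusted p = 0.0132). Its exons overlap those of *Atrip* on the same strand, so that the counts of the 2 genes could be split in more than one way. *Plaat3*, the phospholipase that opens organelle membranes in fiber cells, fell by 1.10, from 898 ± 33.7 to 418 ± 37.5 CPM, and by 0.35 in I/M lens. *Hsf4*, the heat shock factor of the lens, fell by 0.31 (edgeR adjusted p = 0.00157), and with library size alone its sign turned, to 0.20. *Lmna*, which encodes nuclear lamins A and C, rose by 1.87, from 11.2 ± 0.708 to 40.9 ± 4.00 CPM (edgeR adjusted p = 9.72e-10), and by 0.49 in I/M lens.

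The RNA granule list had 3 higher and 9 lower of 19 tested genes in M/M lens. *Pabpc1*, the poly(A)-binding protein, fell by 0.57, and *Fmr1*, a translational regulator, rose by 0.55. The fall of *Pabpc1* was lost with library size alone (-0.06, edgeR adjusted p = 0.285). The fiber RNA-binding proteins *Celf1* and *Rbm24* fell by 0.32 and 0.45, and both signs turned with library size alone, to 0.18 and 0.058, as 0 of the 19 genes were lower with that scaling and 16 were higher.

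Among 11 tested mitophagy genes 0 rose and 5 fell in M/M lens, where *Bnip3* and *Bnip3l* had both risen. *Bcl2l13*, another receptor of the outer mitochondrial membrane, fell by 0.87, from 179 ± 4.04 to 98.1 ± 6.05 CPM, and by 0.43 in I/M lens (edgeR adjusted p = 1.62e-05). The receptor gene *Fundc1* had a log2 FC of 0.08 (edgeR adjusted p = 0.339). *Bcl2l13* was lower with library size alone as well (-0.36), whereas 10 of the 11 genes were higher with it.

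The general autophagy lists were mixed. Of 18 initiation and phagophore genes 6 rose and 4 fell in M/M lens, led by *Uvrag* (0.58), a partner of Beclin 1, and *Atg9a* (-0.64), the lipid scramblase of the phagophore. *Pik3c3*, the lipid kinase of the Beclin 1 complex, had a log2 FC of -0.02 (edgeR adjusted p = 0.833). Of 12 conjugation and LC3 genes 4 rose and 1 fell. *Map1lc3a* rose by 1.31, from 7.03 ± 0.466 to 17.5 ± 0.620 CPM (edgeR adjusted p = 1.92e-09), and by 0.63 in I/M lens, while *Map1lc3b* had a log2 FC of 0.01 (edgeR adjusted p = 0.819) and *Atg12*, whose product is joined to ATG5, fell by 0.28. Of 11 cargo receptor genes other than *Sqstm1*, 4 rose and 3 fell, with *Ccpg1* (0.52) and *Tex264* (-0.47), both receptors for the endoplasmic reticulum, at the ends. With library size alone *Atg12* and *Tex264* turned sign, to 0.23 and 0.037, and the fall of *Atg9a* was lost (-0.14, edgeR adjusted p = 0.0775).

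The lysosome list was mainly higher. In M/M lens 21 of 26 genes rose and 1 fell, with a median log2 FC of 0.35, and in I/M lens 12 rose and 1 fell. *Ctsd*, the acid protease cathepsin D, rose by 0.96, from 256 ± 6.36 to 497 ± 24.2 CPM (edgeR adjusted p = 1.69e-09), and by 0.44 in I/M lens. *Lamp1*, a lysosomal membrane protein, rose by 0.24, and *Atp6v1b2*, a subunit of the proton pump, fell by 0.30 (edgeR adjusted p = 0.0425), a call that was lost in 9 of the 12 fits without 1 library and that turned sign with library size alone. Macrophages and other cells named above carry lysosomes too, and their part in these values was not tested.

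The hypoxia list, made of targets of hypoxia-inducible factors and the factor genes *Hif1a* and *Epas1*, had 12 higher and 2 lower of 16 tested genes in M/M lens, with a median log2 FC of 0.55, and 6 higher and 0 lower in I/M lens. Without the 3 genes that passed the filter on low counts through I/M or M/M libraries alone, the numbers were 9 higher and 2 lower of 13 in M/M lens, with a median of 0.53, and 4 higher and 0 lower in I/M lens. *Epas1*, which encodes HIF-2α, is one of the 3: it stood at 0.386 ± 0.173 CPM in wild-type and 17.1 ± 1.07 CPM in M/M lens and reached 5 CPM in the 3 M/M libraries alone, so no test is drawn on, and the endothelial markers given above were higher in the same libraries. *Ndrg1*, a stress-responsive gene, fell by 0.99 in M/M lens and rose by 0.68 in KO lens (edgeR adjusted p = 0.00139), from 742 ± 92.7 CPM in wild-type to 373 ± 54.8 and 1185 CPM. The other lower gene in M/M lens, given after its value was seen, was *Hif1a* itself (-0.31, edgeR adjusted p = 2.13e-04). Its sign turned with library size alone, to 0.20, where 15 of the 16 genes were higher and 1 was lower.

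**Figure D4:**
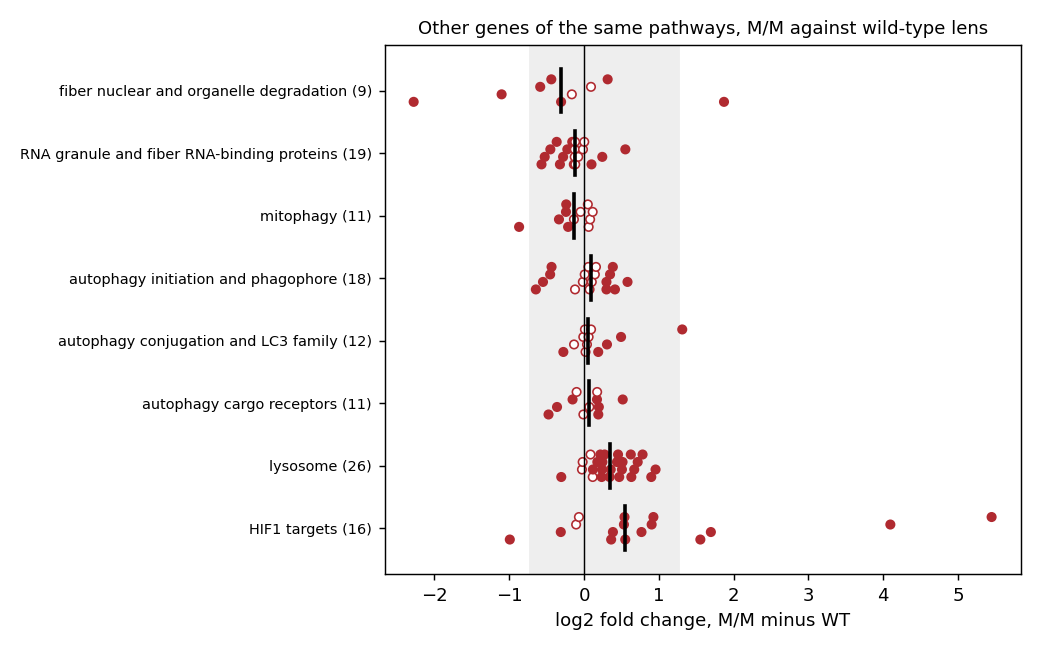
Log2 FC of M/M against wild-type lens (horizontal axis) for the tested genes of 8 pathway lists (rows, with the number tested), filled where adjusted p was 0.05 or less. Black bars are list medians and the grey band holds the values from the 5th to the 95th percentile of all tested genes. The lysosome and hypoxia lists have medians of 0.35 and 0.55, and the other medians lie between -0.31 and 0.09. *Egln3*, *Car9* and *Epas1* of the hypoxia list entered the test through I/M or M/M libraries alone, as did *Atg14*, *Nrbf2* and *Atg4c* of the autophagy lists. The filled circles of *Egln3*, *Car9* and *Epas1* are therefore no support for a rise, and without these 3 genes the hypoxia median is 0.53.

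The genes whose pattern over the 12 libraries was nearest to *Bnip3*, by root-mean-square difference of log2 CPM from the wild-type mean, were *Sh3pxd2b* (0.13), *Arpc1b* (0.15) and *Mroh1* (0.16), where the median over all tested genes was 0.87. The nearest to *Sqstm1* were *Myo1d* (0.11), *Tmsb4x* (0.12) and *Anxa6* (0.12), with a median of 0.89. The nearest to *Caprin2* were *Sh3bgr* (0.069), *Cdk18* (0.13) and *Wnk2* (0.13), with a median of 0.55. None of these 9 genes is among the 8 or in the pathway lists.

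The library kit does not keep strand, so reads of genes that overlap in their exons could not be separated. Among the 8 genes this concerned *Becn1* with *Cntd1* (at most 18 counts per library), *Bnip3* with the antisense gene *Gm45507* (at most 29) and *Sqstm1* with *Mrnip* (at most 132). *Dnase2b* overlaps *Uox* (at most 414 counts) without shared exons, and the lowest *Dnase2b* count was 6283.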

How the data were processed

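Lens total RNA was prepared for poly(A) RNA-sequencing with a TruSeq kit and sequenced on an Illumina NovaSeq. Base calls were made with bcl2fastq, and reads were aligned and quantified by the authors with DRAGEN against the Ensembl mouse primary assembly (mm10 per the labels). The deposited table holds estimated counts per gene: 88.8% of values are whole, and all were rounded to whole numbers, although raw counts had been assumed when the tests were chosen. Its 55774 rows hold 55487 gene identifiers. The 168 identifiers listed more than once carried equal values and were used once. No row lacked an identifier, and the 12 sample columns were matched to samples by name, with 0 columns left over. A second table of the authors' own fold changes and p-values was not used.

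CPM values were computed from the deposited estimated counts with TMM factors (0.828 to 1.27). All 12 libraries entered 1 fit in edgeR 4.0.16 (limma 3.58.1, R 4.3.3) with genotype as the only term, for genes reaching a CPM of 5 in 3 or more libraries, as in the study's methods. Benjamini-Hochberg adjustment was over the 8984 tested genes within a comparison. A log2 FC uses edgeR's default prior, and the likeness of genes a prior count of 2. Counts without genes that passed the filter through I/M or M/M libraries alone, those with a CPM of 5 in fewer than 3 wild-type and KO libraries, were added after the data were seen. Ratios within a library and ratios to fiber markers were tested with two-sided exact permutation tests. The edgeR fit, without the filter on low counts, was tested on simulated counts in which few genes changed. The scaling was not tested where most genes differ, and the other steps were not simulated. Figures were drawn with matplotlib 3.10.9 in Python 3.11.15.

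Alternatives were library size only, TMM without the 16 crystallin genes (49.4% to 63.9% of counts), DESeq2 1.42.0, no filter, CPM of at least 1, fits of the compared genotypes alone, a replicate block, unrounded values for the ratios, and each of the 12 libraries left out in turn. Replicate libraries differed beyond sampling noise (chi-square per gene 8.76 to 57.4), so none was a copy of another. A second preparation of the same pool could differ in this way too, so separate pools are not shown by it. The labels do not name separate litters, so p-values measure the spread between pools of lenses.

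Named genes were the 8 genes, *Trpm3*, the highest and lowest gene of each pathway list among those past the threshold in M/M lens, 9 further genes set by name, and the 3 genes nearest in pattern to each of the 3 of the 8 genes with the largest change. The 8 genes and all lists were chosen with earlier results of these data known. Loci and exon lengths are from GENCODE vM21 (GRCm38), promoter windows from RefSeq (GRCm38.p6), with windows for 6 of the 8 genes.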

Additional observations from a re-analysis of the deposited data

How the results depend on the processing

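Over 7 alternatives and 12 left-out libraries, *Bnip3*, *Bnip3l*, *Dnase2b*, *Caprin2* and *Sqstm1* kept their direction and an adjusted p of 0.05 or less in M/M against wild-type lens. The log2 FC ranged from 1.58 to 2.18 for *Bnip3*, 0.26 to 0.80 for *Bnip3l*, -1.05 to -0.39 for *Dnase2b*, -1.13 to -0.48 for *Caprin2* and 1.34 to 1.91 for *Sqstm1*. In I/M lens *Sqstm1* (0.95 to 1.21) and *Dnase2b* (-0.52 to -0.27) did so too. Library size in place of TMM factors moved the median of all tested genes by 0.50, 0.20, 0.049, 0.31 and 0.46 in M/M, I/M and KO against wild-type and M/M against I/M and KO. In M/M lens it gave 5 of the 8 genes higher and 2 lower, beside 7364 higher and 495 lower of the 8984 tested genes. Depth did not limit the 8 genes apart from *Atg5* and the untested *Dnase2a*.

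With library size only, the sign turned for *Becn1* (0.39 in M/M, 0.12 in I/M, 0.27 and 0.46 in M/M against I/M and KO), for *Tdrd7* in I/M (0.13), for *Dnase2b* in KO (0.048) and, in M/M lens, for *Atg12* (0.23), *Atp6v1b2* (0.21), *Celf1* (0.18), *Hsf4* (0.20), *Pik3c3* (0.49), *Rbm24* (0.058) and *Tex264* (0.037). The number of the 8 genes past the adjusted p in I/M lens was 6 (5 higher, 1 lower) with it, in place of 2, and 4 (3 higher, 1 lower) without the filter. Over all tested genes 5016 of 8984 and 4201 of 32266 passed in these 2 fits. With library size only, the number past the study thresholds in M/M against I/M lens was 1 in place of 2, and the share of all tested genes past them was not computed. In I/M lens 83 pathway genes (81 higher, 2 lower) passed the adjusted p with library size only, in place of 42. In KO lens DESeq2 called 2 of the 8 genes, both lower, in place of 0, where edgeR had 2 at an unadjusted p under 0.05. Of the 8984 tested genes DESeq2 called 554 in this comparison. There 5 pathway genes passed with DESeq2, 7 without the filter and 5 in a fit of the compared genotypes, in place of 3. *Map1lc3b* in M/M lens turned to -0.011 with CPM of at least 1 and to -8.06e-05 without the filter. Except for the scaling, the cause was not tested.

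Counts over the 8 genes here include *Atg5*, which passed the filter through I/M and M/M libraries alone. With 1 library left out, the number of the 8 genes past the adjusted p ranged from 0 to 1 in KO, 2 to 3 in I/M and 7 to 8 in M/M lens, and that past the study thresholds from 0 to 1 in I/M and 2 to 4 in M/M lens. Of the 8454 to 8983 genes tested in these fits, 234 to 433 passed the adjusted p in KO, 2336 to 2831 in I/M and 4750 to 5639 in M/M lens. The share of tested genes past the study thresholds was not computed for these fits. Among the 8 genes, the 1 call in KO lens was *Bnip3l*, without M/M replicate 1 or wild-type replicate 1. The number of pathway genes in KO lens ranged from 2 to 5, with 5 without M/M replicate 1 or wild-type replicate 1. Values near 0 changed sign: *Atg5* (-0.046 to 0.054) and *Dnase2b* (-0.052 to 0.052) in KO, *Becn1* in M/M against KO (-0.021 to 0.028), *Map1lc3b* (-0.027 to 0.048) and *Pik3c3* (-0.055 to 0.039) in M/M lens, and the log2 ratio of *Bnip3l* to *Bnip3* in KO lens (-0.071 to 0.027). Against fiber markers, so did *Atg5* (-0.018 to 0.17) and *Bnip3* (-0.15 to 0.015) in KO and *Dnase2b* in M/M lens (-0.14 to 0.036).

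Replicate numbers did not pair the libraries: 2 of 18 same-number pairs had deviations correlated above 0.1 (range -0.26 to 0.15), and 2 of 12 libraries correlated best with their own number. With the replicate block, 8, 2 and 0 of the 8 genes passed the adjusted p in M/M, I/M and KO against wild-type lens, and 6 and 7 in M/M against I/M and KO, the same numbers as without it. The 8 and the 7 include *Atg5*, from whose p-value no rise is drawn. Of the 8984 tested genes 5514, 2695 and 341 passed against wild-type with the block, in place of 5637, 2929 and 392. In M/M against I/M and KO 4461 and 5685 passed, in place of 4608 and 5818.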

Other observations

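Among the general autophagy genes, 3 of the GABARAP family of LC3-like proteins rose together in M/M lens, named here after their values were seen. *Gabarap* rose by 0.50 on the log2 scale (edgeR adjusted p = 2.14e-06), *Gabarapl1* by 0.31 (edgeR adjusted p = 0.00247) and *Gabarapl2* by 0.19 (edgeR adjusted p = 0.00351). Of the phagophore genes, the WIPI genes *Wipi1* (-0.45) and *Wipi2* (-0.55) and the kinase complex gene *Atg13* (-0.43) fell, while the kinases *Ulk1* (0.35) and *Ulk2* (0.39) and the lipid transfer genes *Atg2a* (0.30) and *Atg2b* (0.41) rose. Other members of these families did not pass: the WIPI genes *Wdr45* (0.058) and *Wdr45b* (0.0092) and the kinase complex genes *Rb1cc1* (0.07) and *Atg101* (0.10). With library size alone, which raises all genes of this comparison alike, *Wipi1*, *Wipi2* and *Atg13* were at 0.058, -0.042 and 0.075, and the 3 calls were lost.

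The lysosomal transcription factor genes *Tfeb* and *Tfe3*, also named after their values were seen, rose by 0.44 and 0.72 in M/M lens (edgeR adjusted p = 3.91e-04 and 7.98e-08). Of the hypoxia list, *Pgk1*, a glycolytic kinase, rose by 1.56 in M/M and 0.49 in I/M lens. The oxygen-sensing hydroxylase gene *Egln3* stood at 2.93 ± 0.356 CPM in wild-type and 9.47 ± 2.07 CPM in M/M lens, and *Car9*, a carbonic anhydrase gene, at 0.523 ± 0.0568 and 8.98 ± 2.79 CPM. Both passed the filter on low counts through I/M or M/M libraries alone, so their values are a description.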
